A study of Mus musculus with 3 samples.

Results

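Between the hormone receptor and the cyclic AMP (cAMP) response lies a chain of proteins: heterotrimeric G proteins, adenylyl cyclases, phosphodiesterases, protein kinase A (PKA), the CREB factors with their CRTC coactivators, and the β-arrestins. The genes of this chain were taken by name from the protein-coding genes of the table: the Gna, Gnb, Gng, Adcy, Pde, Prkac and Prkar names, with Creb1, Crem, Atf1, Crtc1, Crtc2, Crtc3, Arrb1 and Arrb2. They were 81 of 54532 genes. Of these 81, 37 had a mean of at least 1 FPKM over the libraries (fragments per kilobase, with the authors' scaling for depth) and passed the filter on low values. Another 19 lay under that filter with more than 3 reads in at least 1 library, 12 had at most 3 reads in every library, and 13 had 0 reads in all of them.

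The cells were RAW264.7, a line of mouse macrophages that turn into bone-resorbing osteoclasts under the cytokine RANKL. All 3 groups were of WT genotype and had received RANKL for 3 days. After that, 1 group received 10 mU/mL of thyroid stimulating hormone (TSH) for 2 h, 1 received the same dose for 24 h, and RANKL alone had no TSH and is labelled 0 h. Each group was 1 library of 1 cell line, so no difference had a replicate check and no p-value is given. The TSH libraries are called T1 and T2 after their columns, whose names do not say which had 2 h and which had 24 h. Both were set against the single RANKL alone library, and time in culture may differ along with TSH.

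In this pathway a Gs-coupled receptor makes the Gs α subunit exchange GDP for GTP, and the α subunit then activates adenylyl cyclase, which makes cAMP. The Gi α subunits inhibit most cyclases, and phosphodiesterases break cAMP down. cAMP frees the PKA catalytic subunits from their regulatory subunits, and the catalytic subunits phosphorylate CREB, Crem and Atf1, which bind the cAMP response element in promoters. In macrophages and osteoclasts the pathway carries signals from receptors for prostaglandins, adenosine and calcitonin.

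The promoters of 5 members are shown because they hold the genes of the main steps (the Gs α subunit, the main cyclase, a cAMP phosphodiesterase), the member with the full cAMP response element, and, of the members past the filter, the one that differed most from RANKL alone. Each is the 250 bases before an annotated start in RefSeq on GRCm38.p6, written 5′ to 3′ on the gene's strand. Capitals mark matches on either strand to the full element TGACGTCA or to the short motif TGACG, which also lies within the full one. The table does not say which start was used in these cells, and other starts of Gnas, Adcy7, Prkar1a and Pde4b have windows of their own.
Gnas, chr2:174329756-174330005, plus strand: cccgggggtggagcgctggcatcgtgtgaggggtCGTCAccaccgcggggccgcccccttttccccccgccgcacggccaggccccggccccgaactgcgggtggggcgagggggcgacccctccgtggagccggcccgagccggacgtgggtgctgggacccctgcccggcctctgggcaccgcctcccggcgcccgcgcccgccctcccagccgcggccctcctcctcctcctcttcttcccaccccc
Adcy7, chr8:88282742-88282991, plus strand: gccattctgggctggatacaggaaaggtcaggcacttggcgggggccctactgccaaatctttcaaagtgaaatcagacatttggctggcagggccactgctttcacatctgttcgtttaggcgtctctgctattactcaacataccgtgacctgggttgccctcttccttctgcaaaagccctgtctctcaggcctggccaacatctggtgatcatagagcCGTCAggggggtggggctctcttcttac
Pde4b, chr4:102421305-102421554, plus strand: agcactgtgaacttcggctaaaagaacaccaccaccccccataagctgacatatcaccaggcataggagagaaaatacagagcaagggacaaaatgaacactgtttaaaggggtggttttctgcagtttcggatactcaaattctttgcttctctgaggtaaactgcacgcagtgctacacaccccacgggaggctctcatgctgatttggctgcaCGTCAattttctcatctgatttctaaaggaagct
Prkar1a, chr11:109650699-109650948, plus strand: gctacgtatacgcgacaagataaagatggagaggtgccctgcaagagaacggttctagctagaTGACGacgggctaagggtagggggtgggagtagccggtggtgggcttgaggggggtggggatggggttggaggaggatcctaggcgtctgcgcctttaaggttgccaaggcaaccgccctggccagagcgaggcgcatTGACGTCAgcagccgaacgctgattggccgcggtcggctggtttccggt
Gng2, chr14:19976694-19976943, minus strand: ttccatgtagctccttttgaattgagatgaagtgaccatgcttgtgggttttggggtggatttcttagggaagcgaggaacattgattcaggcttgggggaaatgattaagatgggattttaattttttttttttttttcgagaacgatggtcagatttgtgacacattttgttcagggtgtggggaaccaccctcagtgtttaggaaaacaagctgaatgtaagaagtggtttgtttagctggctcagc
The short motif began 216 bases before the start in the Gnas window, 28 in that of Adcy7 and 34 in that of Pde4b. The Prkar1a window held the full element 49 bases before the start and a short motif at 187. The Gng2 window held neither. Of the windows not printed, the other 2 of Adcy7, the other 3 of Pde4b and 1 of the other 3 of Gnas held no match, so the windows shown for Adcy7 and Pde4b are the only ones of those genes with the motif. Of the other Prkar1a windows, some held a short motif, some held no match, and none held the full element. Of the 37 members past the filter, 31 had at least 1 window. Prkar1a alone of these 31 (3.23%) held the full element, against 1.77% of 27025 genes with a window, and 10 of the 31 (32.3%) held the short motif, against 19.8% of all genes. The members had more windows per gene, 56 over 31 genes against 32851 over 27025. Per window the full element was in 1 of the members' 56 (1.79%) and in 1.55% of all. The short motif was in 14 of the 56 (25%) and in 17.8% of all. Some windows of a gene overlap, so a short motif of Gnas and another of Prkar1a are each counted in more than 1 window. A match is a description of the letters and not a binding site.

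The recovered reads summed to 16809034 in T1, 17390744 in T2 and 16156926 in RANKL alone. For a gene of 1 kb, 3 reads came to 0.179 FPKM in T1, 0.171 in T2 and 0.186 in RANKL alone. The cells carried the macrophage and osteoclast markers listed for them, with 6 of 7 and 9 of 10 past the filter. None of the osteoblast and fibroblast, lymphocyte, neutrophil and thyroid markers passed it, and their summed levels were at most 0.380 FPKM in any library. The osteoclast markers summed to 2572 FPKM in T1, 2496 in T2 and 3096.5 in RANKL alone, while the macrophage markers summed to 1218.8, 1219.81 and 1232.4 FPKM in the same order. In bulk RNA, fewer cells of a type and less RNA per cell cannot be told apart, and the part of the osteoclast markers in the differences given below was not tested.

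Among the G protein α subunits, the Gi class had the highest summed FPKM as deposited. Of 16 α genes, 7 passed the filter. Gnai2, a Gi subunit, stood at 123.705 FPKM in T1, 120.022 in T2 and 123.907 in RANKL alone, the highest level of any member. Gnai3, the other Gi subunit past the filter, had 54.9 FPKM in T1, 56.5 in T2 and 54.1 in RANKL alone. The Gi class made up 64.9% of the summed α FPKM in T1, 65.1% in T2 and 64.1% in RANKL alone. The G12 class, known for its effects on the actin cytoskeleton, followed with 25.1% in T1, 25.3% in T2 and 25.6% in RANKL alone. Within it Gna13 had 55.1, 56.2 and 57.7 FPKM and Gna12 had 14.2, 12.6 and 13.4 FPKM in T1, T2 and RANKL alone. The Gq class, which activates phospholipase C β, contributed 8.17% in T1, 7.64% in T2 and 8.30% in RANKL alone. Gnaq carried most of that class, with 18.1 FPKM in T1, 16.9 in T2 and 19.3 in RANKL alone, while Gna11 had 3.84 FPKM in T1, 3.16 in T2 and 3.25 in RANKL alone.

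Gnas, which encodes the stimulatory Gs α subunit, had 4.84 FPKM (908 reads) in T1, 4.80 (941 reads) in T2 and 4.93 (890 reads) in RANKL alone. The libraries lay close together, with a ratio of 0.981 (95% counting interval 0.894 to 1.08) for T1 and 0.973 (0.887 to 1.07) for T2, each over RANKL alone. With Gnal, the Gs-like subunit of olfactory neurons, it made up 1.90% of the summed α FPKM in T1, 1.94% in T2 and 2.00% in RANKL alone. This level depends on how the gene was counted. The deposited length of Gnas is 11186 bases, while the annotated transcripts Gnas-206, Gnas-207 and Gnas-208, which begin just after the window printed above, are 1695 to 1789 bases long. Gm20721, a protein-coding model on the opposite strand at chr2:174330319-174346712, shares 80.4% to 85.4% of the bases of those transcripts and was given 3 reads in T1, 0 in T2 and 1 in RANKL alone. The handling of strand and of shared reads is not given in the sources used here, and the part of this overlap in the low Gnas level was not tested. The shares of all classes in the α sum, that of Gs among them, and the order of the classes are thus those of deposited values.

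The β subunits were dominated by a pair of genes. Gnb2 had 90.3 FPKM in T1, 89.4 in T2 and 87.0 in RANKL alone, and Gnb1 had 84.8 FPKM in T1, 81.0 in T2 and 85.0 in RANKL alone. Gnb5, whose protein pairs with R7-type RGS proteins, was far lower, with 2.51 FPKM (131 reads) in T1, 3.33 (182 reads) in T2 and 3.64 (183 reads) in RANKL alone. T1 was the low library for Gnb5, and T2 and RANKL alone were alike in reads. Gnb4 lay under the filter and Gnb3 had at most 3 reads in every library.

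Of 10 γ genes, which supply the lipid-anchored partners of the β subunits, 3 passed the filter. Gng5 had 24.3 FPKM in T1, 23.7 in T2 and 24.0 in RANKL alone, and accounted for 67.7%, 66.7% and 68.4% of the summed γ FPKM in T1, T2 and RANKL alone. Gng12 had 7.04 FPKM in T1, 7.11 in T2 and 7.36 in RANKL alone. Gng2 had 2.70 FPKM (199 reads) in T1, 2.92 (225 reads) in T2 and 1.84 (130 reads) in RANKL alone. It was thus higher in both TSH libraries, and its share of the γ sum was 7.53% in T1, 8.24% in T2 and 5.23% in RANKL alone. Gng2 lies at chr14:19872559-19977627 on the minus strand, and 20.4% of its exonic bases overlap the opposite-strand non-coding gene Gm48283, which had 0 reads in every library. Gngt2, a γ gene that the naming rule leaves out, had 8.48 FPKM in T1, 8.94 in T2 and 8.82 in RANKL alone. The γ sum does not include it, so the shares of Gng5 and Gng2 would be smaller with Gngt2 counted. Gng5 has near-identical copies elsewhere in the genome, which were given at most 6 reads each in any library. How reads shared between such copies were counted is not known, so its level is uncertain.

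**Figure D1:**
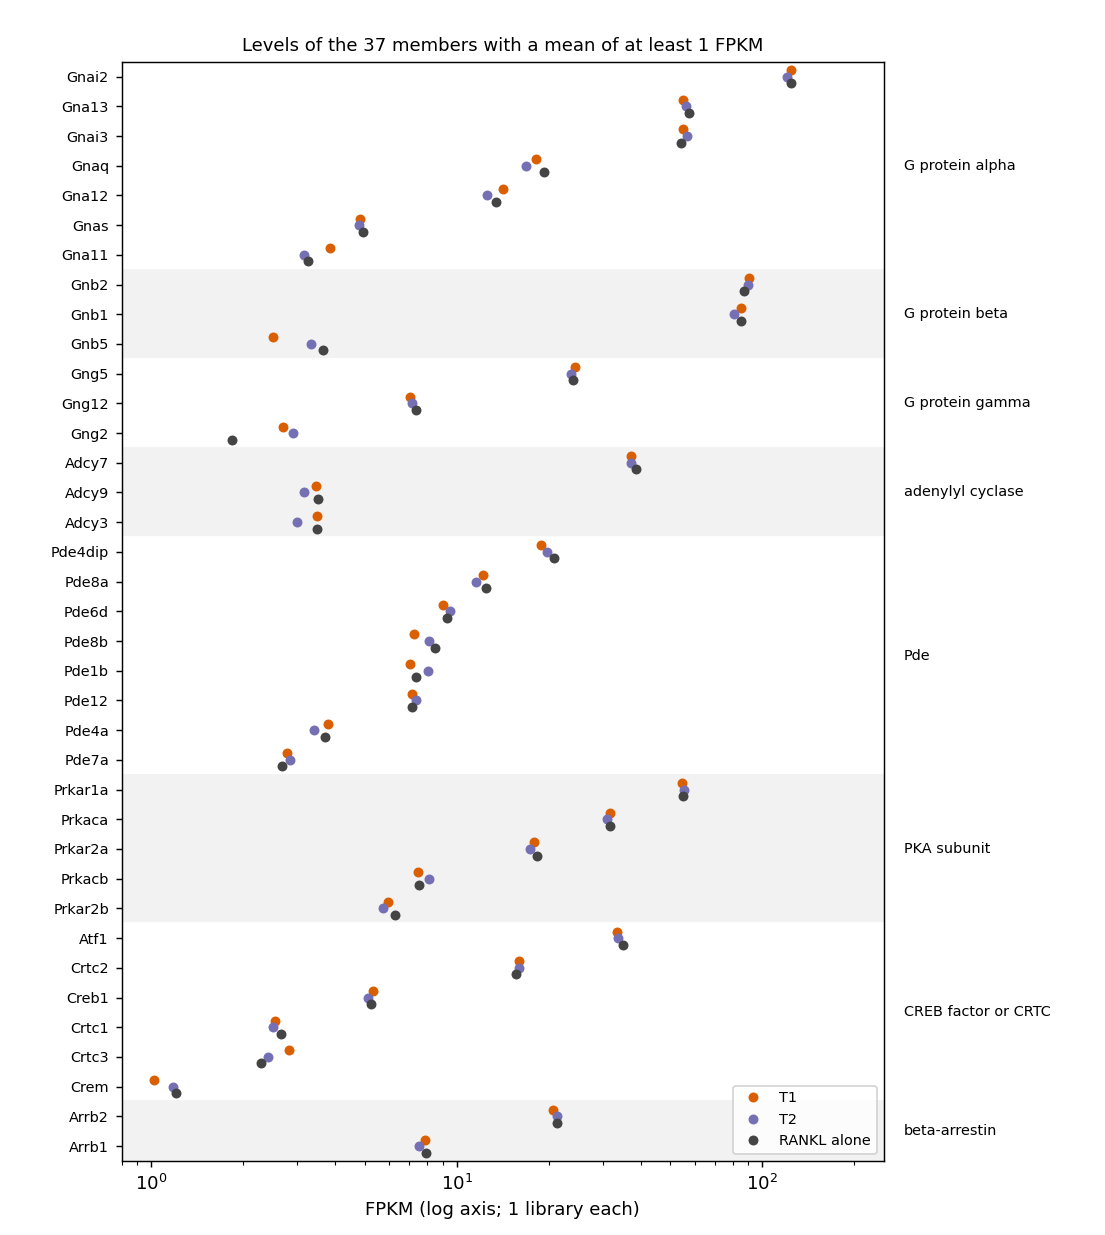
Level of each of the 37 members past the filter (rows, by family) in FPKM on a log axis, 1 point per library (T1, T2 and RANKL alone). The 3 points of a gene nearly coincide for most genes, and Gnai2 is highest at 120.022 to 123.907 FPKM.

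The cyclase step rested on a single gene at the RNA level. Adcy7, a cyclase that β and γ subunits can stimulate further and that is prominent in blood cells, had 37.2 FPKM (4196 reads) in T1, 37.1 (4380 reads) in T2 and 38.6 (4191 reads) in RANKL alone. It made up 83.1% of the summed cyclase FPKM in T1, 84.5% in T2 and 83.0% in RANKL alone. The ratio over RANKL alone was 0.963 (0.922 to 1.005) for T1 and 0.962 (0.922 to 1.004) for T2, and both intervals held 1. Adcy9 followed with 3.45 FPKM in T1, 3.17 in T2 and 3.52 in RANKL alone, and Adcy3, the cyclase of olfactory signalling, with 3.50, 3.01 and 3.48 FPKM in T1, T2 and RANKL alone. Of Adcy3's exonic bases 22.1% are shared with Cenpo on the opposite strand, which had 246, 254 and 220 reads in T1, T2 and RANKL alone. Adcy2, Adcy5 and Adcy6 were read under the filter, Adcy4 had at most 3 reads in every library, and Adcy1, Adcy8 and Adcy10 had 0 reads. Adcy1 and Adcy8 encode the calcium-stimulated cyclases known from neurons, and Adcy10 the soluble cyclase stimulated by bicarbonate.

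Among 26 genes with a Pde name, 8 passed the filter, and not all of these act on cyclic nucleotides. Pde4dip (myomegalin, which binds Pde4d) had 18.8 FPKM in T1, 19.8 in T2 and 20.8 in RANKL alone. Pde6d, a carrier of prenylated proteins, had 9.04, 9.48 and 9.28 FPKM, and Pde12, a mitochondrial nuclease, had 7.15, 7.33 and 7.15 FPKM in T1, T2 and RANKL alone. Over the 21 genes that encode catalytic cyclic nucleotide phosphodiesterases, the FPKM summed to 34.9 in T1, 35.7 in T2 and 36.4 in RANKL alone.

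The cAMP-specific Pde8 pair made up more of that sum than any other subfamily, 55.6% in T1, 55.2% in T2 and 57.7% in RANKL alone. Pde8a had 12.2 FPKM in T1, 11.6 in T2 and 12.5 in RANKL alone, and Pde8b had 7.22 FPKM (712 reads) in T1, 8.09 (833 reads) in T2 and 8.47 (803 reads) in RANKL alone. T1 was the low library for Pde8b. Pde1b, a calmodulin-dependent enzyme that hydrolyses cAMP and cGMP, had 7.05 FPKM in T1, 8.08 in T2 and 7.35 in RANKL alone, and T2 was its high library. Pde7a, which is cAMP-specific, had 2.79 FPKM in T1, 2.85 in T2 and 2.68 in RANKL alone.

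The Pde4 genes, cAMP-specific enzymes known as drug targets in inflammatory cells, made up 15.9% of the sum in T1, 13.8% in T2 and 14.2% in RANKL alone. Pde4a was the only one past the filter, with 3.80 FPKM in T1, 3.42 in T2 and 3.70 in RANKL alone. Pde4d had 0.879 FPKM in T1, 0.746 in T2 and 0.780 in RANKL alone. Pde4b, which CREB is known to induce in several cell types, had 0.864 FPKM (153 reads) in T1, 0.708 (131 reads) in T2 and 0.681 (116 reads) in RANKL alone. T1 was the highest of the 3 libraries for Pde4b, but the ratio of T1 over RANKL alone, 1.27, had a counting interval of 0.990 to 1.63. The ratio of T2 over RANKL alone was 1.04 (0.803 to 1.35), and that of T2 over T1 was 0.819 (0.644 to 1.04), so no pair of libraries differed beyond counting error. Pde4c had at most 4 reads in any library.

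All PKA genes except Prkar1b passed the filter. Prkar1a, the widely expressed type I regulatory subunit with the full element in 1 of its promoter windows, had 54.5 FPKM in T1, 55.5 in T2 and 55.1 in RANKL alone. The type II subunits were lower: Prkar2a had 17.9, 17.3 and 18.3 FPKM and Prkar2b had 5.94, 5.73 and 6.26 FPKM in T1, T2 and RANKL alone. Of the catalytic subunits, Prkaca had 31.7 FPKM in T1, 31.0 in T2 and 31.7 in RANKL alone, and Prkacb had 7.49 FPKM in T1, 8.09 in T2 and 7.50 in RANKL alone. Summed regulatory FPKM over summed catalytic FPKM gave 2.01 in T1, 2.02 in T2 and 2.04 in RANKL alone. The makeup of the kinase at the RNA level differed little between the 3 libraries, and no PKA gene differed beyond counting error in any of the 3 comparisons.

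The 6 genes of CREB factors and their coactivators all passed the filter. Atf1, a CREB relative that PKA also phosphorylates, was the most abundant at 33.4 FPKM in T1, 33.8 in T2 and 34.9 in RANKL alone. Creb1 had 5.33 FPKM in T1, 5.12 in T2 and 5.24 in RANKL alone. Crem, which also gives the cAMP-inducible repressor ICER from an internal promoter, had 1.02 FPKM (101 reads) in T1, 1.18 (122 reads) in T2 and 1.21 (115 reads) in RANKL alone. None of these 3 factors differed beyond counting error.

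The CRTC coactivators enter the nucleus when they lose phosphate groups that SIK kinases place on them. Crtc2 had 16.0 FPKM in T1, 16.0 in T2 and 15.6 in RANKL alone, and Crtc1 had 2.54, 2.51 and 2.66 FPKM in T1, T2 and RANKL alone. Crtc3, at chr7:80586627-80688877 on the minus strand, had 2.82 FPKM (466 reads) in T1, 2.42 (418 reads) in T2 and 2.28 (363 reads) in RANKL alone, so T1 was its high library. Of the β-arrestins, which desensitise receptors, Arrb2 had 20.7 FPKM in T1, 21.2 in T2 and 21.2 in RANKL alone, and Arrb1 had 7.90, 7.51 and 7.91 FPKM in T1, T2 and RANKL alone.

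The 13 genes with 0 reads in all libraries were Adcy1, Adcy8, Adcy10, Gnai1, Gnaz, Gnat1, Gna14, Pde1a, Pde3a, Pde6c, Pde6h, Pde9a and Pde11a. A count of 0 allows up to 3 reads, which is 0.0134 to 0.0656 FPKM for these genes depending on gene length and library. The 12 genes with at most 3 reads in every library were Gnat3, Gng8, Gng11, Gng13, Adcy4, Pde2a, Pde6a, Gnb3, Pde3b, Gnao1, Pde5a and Pde1c. These classes hold some of the subunits and enzymes known from rods, cones, taste cells and neurons (Gnat1, Gnat3, Gnao1, Pde6a, Pde6c, Pde6h). They also hold the cGMP-related Pde2a, Pde3a, Pde3b, Pde5a and Pde9a, so that of the enzymes that hydrolyse cGMP only Pde1b passed the filter.

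The 19 genes read above the floor but under the filter had means of 0.0156 to 0.900 FPKM. They were Gng7, Pde4d, Pde4b, Gna15, Adcy2, Gnb4, Gnal, Gnat2, Prkar1b, Gng10, Gng4, Gng3, Pde6g, Pde6b, Adcy6, Adcy5, Pde7b, Pde4c and Pde10a. Gnat2, Pde6b and Pde6g are known from rods and cones, so not all such genes were at the floor. Gnat2 had 25 reads in T1, 28 in T2 and 17 in RANKL alone. Gnal had 0.404 FPKM (39 reads) in T1, 0.475 (48 reads) in T2 and 0.646 (60 reads) in RANKL alone. Its ratio of T1 over RANKL alone was 0.625 (0.407 to 0.951), the only difference beyond counting error against RANKL alone among the members under the filter. Mppe1 on the opposite strand shares 7.63% of Gnal's annotated exonic bases and had 175 reads in T1, 187 in T2 and 175 in RANKL alone. Of Gng10's exonic bases 72.0% overlap other genes, and its 11 reads in T1, 7 in T2 and 5 in RANKL alone are uncertain for that reason.

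The first comparison asked how the T1 library differed from RANKL alone. Of the 37 members past the filter, Gng2 and Crtc3 were higher beyond counting error, and Gna13, Pde4dip, Pde8b and Gnb5 were lower. A difference is called beyond counting error where the 95% interval of the FPKM ratio leaves out 1, which compares these libraries and not the conditions. The intervals cover counting error only, and reads that are PCR copies are not separate molecules. The 2 higher members were 5.41% of the 37, against 10.8% of all 11069 genes past the filter, and the 4 lower members were 10.8%, against 12.2% of all genes. These counts are small, and the share of lower members was close to that of all genes. When all libraries were given the same FPKM total, 2 members were higher and 6 lower in T1. Members past the filter had a median of 2809 reads over the 3 libraries, against 1833 for all genes past it.

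The ratio of T1 over RANKL alone was 1.47 (1.17 to 1.85) for Gng2 and 1.24 (1.07 to 1.42) for Crtc3. It was 0.689 (0.546 to 0.866) for Gnb5, at chr9:75306288-75345876 on the plus strand, and 0.853 (0.770 to 0.945) for Pde8b, at chr13:95024454-95250336 on the minus strand. The Gna13 ratio of 0.954 (0.920 to 0.989) and the Pde4dip ratio of 0.904 (0.871 to 0.939) were small differences in deeply read genes, with at least 5929 and 5328 reads in every library. On the scale of log2(FPKM + 1), which understates changes of low genes, a difference of at least 0.32 either way was counted as past the size rule. Gng2 reached it at 0.38 and Gnb5 at -0.40. They were 2 of 37 members (5.41%), against 7.34% of all genes. The median log2 change was -0.02 over the members, of which 13 were above 0 and 24 below, and -0.00136 over all genes.

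The second comparison asked the same of the T2 library. Gng2 was the only member higher beyond counting error, and Gnai2, Gnb1, Pde4dip and Gnaq were lower. The 1 higher member was 2.70% of the 37, against 10.2% of all genes, and the 4 lower members were 10.8%, against 13.2% of all genes. Gng2 had a ratio of T2 over RANKL alone of 1.59 (1.28 to 1.99), the largest difference from RANKL alone among the members past the filter in either TSH library. Gnaq, at chr19:16132831-16387463 on the plus strand, had a ratio of 0.874 (0.819 to 0.932). The ratios of Gnai2, 0.969 (0.938 to 0.9998), Gnb1, 0.952 (0.919 to 0.987), and Pde4dip, 0.949 (0.915 to 0.985), were close to 1, and the upper bound for Gnai2 lies just under it.

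Gng2 was also the only member past the size rule in T2, at 0.47 on the log2(FPKM + 1) scale. That was 2.70% of the members, against 7.02% of all genes. The members' median log2 change was -0.04, with 11 above 0 and 26 below, and that of all genes was -0.00182. All 3 cyclases past the filter were below RANKL alone in T2, and none of them differed beyond counting error. Since T1 and T2 were set against the same RANKL alone library, the Gng2 ratios of 1.47 and 1.59 share its 130 reads.

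**Figure D2:**
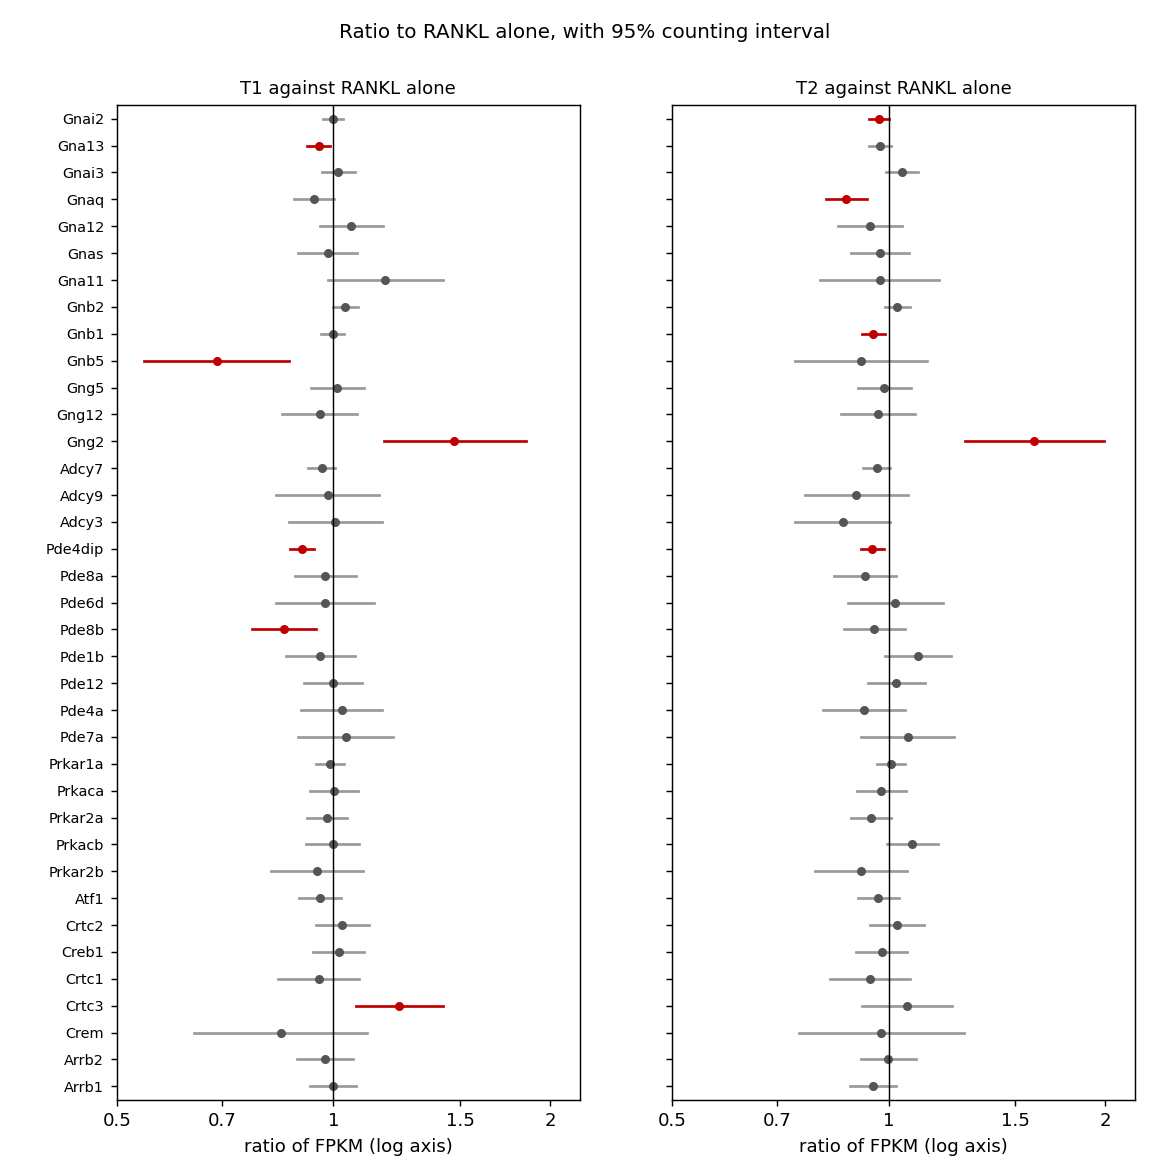
Ratio of FPKM in T1 (left) and T2 (right) over RANKL alone for the 37 members past the filter, on a log axis, with lines for the 95% counting interval. Red marks intervals that leave out 1, which are those of 6 members in T1 and 5 in T2, and Gng2 lies farthest to the right in both panels.

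**Figure D3:**
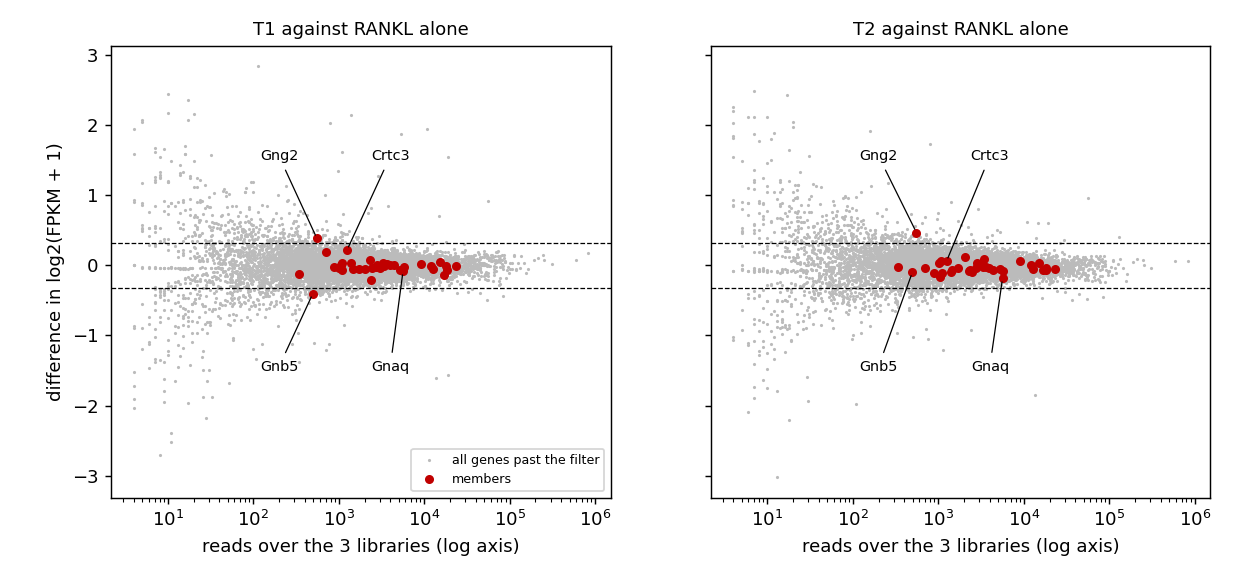
Difference in log2(FPKM + 1) of T1 (left) and T2 (right) over RANKL alone, against the reads of a gene summed over the 3 libraries (log axis). Grey points are all 11069 genes past the filter, red points are the 37 members, and dashed lines mark the size rule of 0.32 either way, which Gng2 and Gnb5 pass in T1 and Gng2 passes in T2.

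The third comparison set the TSH libraries against each other. Pde4dip, Pde8b, Pde1b and Gnb5 were higher in T2 than in T1 beyond counting error, 4 of 37 members (10.8%) against 7.93% of all genes. Gnb1, Gnaq, Gna12, Gna11, Adcy3 and Crtc3 were lower in T2, 6 of 37 (16.2%) against 10.1% of all genes. These counts moved with the scaling of the libraries: when all libraries were given the same FPKM total, 7 members were higher and 0 lower. With 99% intervals in place of 95%, 0 were higher and 0 lower. The ratio of T2 over T1 was 1.33 (1.06 to 1.68) for Gnb5, 1.15 (1.03 to 1.27) for Pde1b, 1.12 (1.01 to 1.24) for Pde8b and 1.05 (1.01 to 1.09) for Pde4dip.

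Among the genes lower in T2, Gna11 had a ratio over T1 of 0.823 (0.686 to 0.986) and Gna12 one of 0.890 (0.805 to 0.984). Adcy3 had 0.858 (0.737 to 0.998) and Crtc3 had 0.858 (0.750 to 0.982). Gnaq had 0.929 (0.871 to 0.992) and Gnb1 had 0.955 (0.922 to 0.990). All the members lower in T2 had upper bounds just under 1, and that of Adcy3 lay nearest to it. No member reached the size rule, against 6.03% of all genes. Members had a median log2 change of -0.01 and all genes one of -0.00267. Gna12 shares 13.3% of its exonic bases with Amz1, which had 253 reads in T1, 284 in T2 and 326 in RANKL alone.

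**Figure D4:**
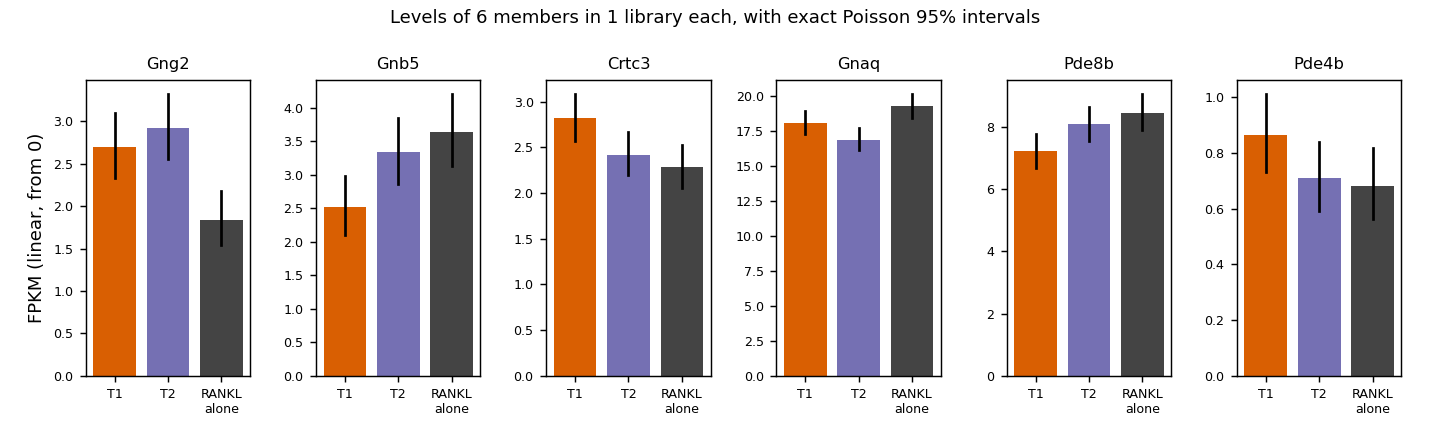
FPKM of Gng2, Gnb5, Crtc3, Gnaq, Pde8b and Pde4b in T1, T2 and RANKL alone (1 library each), as bars from 0 with exact Poisson 95% counting intervals. Gng2 is higher in both TSH libraries than in RANKL alone, Gnb5 and Pde8b are lowest in T1, Gnaq is lowest in T2, and the intervals of Pde4b overlap.

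Other genes of the pathway were read from lists of symbols. Of 22 Gs-coupled receptors, 4 passed the filter, Ptger4, Adora2b and Calcrl among them. Tshr, the TSH receptor, had 2 reads in T1, 0 in T2 and 0 in RANKL alone, which is within the floor of 3 reads. Ptger4, the prostaglandin receptor EP4, had 2.26 FPKM in T1, 2.82 in T2 and 2.38 in RANKL alone. It was higher in T2 than in RANKL alone with a ratio of 1.19 (1.01 to 1.40). No other receptor of the list past the filter differed beyond counting error against RANKL alone. Ptger4 was thus 1 of 4 higher in T2, where 10.2% of all genes were. A count this small places the list no further. Adora2b, an adenosine receptor, had 3.78 FPKM in T1, 4.58 in T2 and 4.30 in RANKL alone. Calcrl, the receptor for CGRP and adrenomedullin, had 2.10 FPKM in T1, 2.06 in T2 and 1.87 in RANKL alone. The calcitonin receptor Calcr, an osteoclast marker under the filter, had 0.412 FPKM (27 reads) in T1, 0.321 (22 reads) in T2 and 0.697 (44 reads) in RANKL alone. It was lower beyond counting error in both TSH libraries, with ratios of 0.590 (0.351 to 0.975) for T1 and 0.460 (0.263 to 0.784) for T2. These lie farther from 1 than the ratio of any receptor named here past the filter. Both rest on few reads and share the 44 reads of RANKL alone.

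Of 18 genes of PKA anchors, PKA inhibitors and other cAMP effectors, 10 passed the filter, and 3 of these were lower and 0 higher beyond counting error in T1, where 12.2% of all genes were lower and 10.8% higher. In T2, 2 were lower and 1 higher, where 13.2% of all genes were lower and 10.2% higher. Akap6, an anchor of PKA at the nuclear envelope in muscle, had 1.59 FPKM in T1, 1.27 in T2 and 2.09 in RANKL alone. It was lower in both TSH libraries, with ratios over RANKL alone of 0.762 (0.666 to 0.871) for T1 and 0.606 (0.526 to 0.698) for T2. Akap13, another PKA anchor, had 9.36 FPKM in T1, 8.28 in T2 and 9.97 in RANKL alone, with ratios of 0.938 (0.894 to 0.985) and 0.831 (0.791 to 0.873). Akap7 was lower in T1, with 2.37 FPKM in T1, 2.69 in T2 and 3.13 in RANKL alone and a T1 ratio of 0.757 (0.617 to 0.928). Abcc4, a transporter that exports cAMP, had 4.42 FPKM in T1, 3.81 in T2 and 4.18 in RANKL alone and held 1 in both intervals, while the 1 higher gene in T2 was Akap8, with a ratio of 1.06 (1.01 to 1.12). The median log2 change of the list was 0.04 in T1 and -0.06 in T2.

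Of the 22 symbols listed as G protein regulators, 20 were found and 17 passed the filter. The 17 include Ppp1r7, whose protein regulates a phosphatase rather than a G protein. The receptor kinase Grk3 was lower in both TSH libraries, with 3.94 FPKM in T1, 3.54 in T2 and 4.66 in RANKL alone and ratios of 0.845 (0.754 to 0.947) and 0.761 (0.678 to 0.854). Rgs2, which speeds the return of Gq α to its GDP form, had 20.5 FPKM in T1, 19.0 in T2 and 20.9 in RANKL alone and was lower in T2 with a ratio of 0.908 (0.838 to 0.984). Gpsm3 had 19.9 FPKM in T1, 21.6 in T2 and 21.8 in RANKL alone, and Gpsm2, which like Gpsm3 binds Gi α in its GDP form, had 17.6, 19.3 and 17.9 FPKM in T1, T2 and RANKL alone. The other 15 genes past the filter, these included, held 1 in their intervals against RANKL alone, so 1 of 17 was lower in T1 against 12.2% of all genes and 2 of 17 in T2 against 13.2%. The median log2 change of the list was -0.02 in T1 and -0.04 in T2.

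Of 9 genes listed under CREB coactivators, SIK kinases and calcineurin, the phosphatase that activates CRTC proteins, 7 passed the filter. Sik1 and Cabp1 did not, and Cabp1 belongs to none of these kinds. In T1, Ppp3ca, Ppp3r1 and Ep300 were lower, 3 of 7 where 12.2% of all genes were. In T2, Crebbp and Ppp3cb were higher, 2 of 7 where 10.2% of all genes were, and counts this small place the list no further. Ppp3ca, a calcineurin catalytic subunit, had 7.13 FPKM in T1, 7.80 in T2 and 8.11 in RANKL alone, with a T1 ratio of 0.879 (0.812 to 0.952). Crebbp, the acetyltransferase CBP, had 6.97 FPKM in T1, 7.46 in T2 and 6.71 in RANKL alone, with a T2 ratio of 1.11 (1.04 to 1.19). Ppp3cb, another calcineurin catalytic subunit, had 13.4 FPKM in T1, 14.7 in T2 and 13.5 in RANKL alone, with a T2 ratio of 1.09 (1.03 to 1.16). Sik2, a kinase that keeps CRTC proteins out of the nucleus, had 3.93 FPKM in T1, 4.25 in T2 and 4.32 in RANKL alone. Over this list the median log2 change was -0.10 in T1 and 0.01 in T2.

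Among 24 genes known as cAMP or CREB targets, 13 passed the filter, and in T1 none was higher beyond counting error and Il1rn and Il10 were lower, 2 of 13 where 12.2% of all genes were. In T2, Nr4a2 was higher, 1 of 13 against 10.2% of all genes, and Fos, Junb, Rgs2 and Il1rn were lower, 4 of 13 against 13.2%. The T2 ratio was 0.912 (0.873 to 0.952) for Fos and 0.966 (0.934 to 0.9995) for Junb, whose upper bound lies just under 1. Nr4a2, an orphan nuclear receptor of the immediate early class, had 7.30 FPKM in T1, 7.99 in T2 and 7.04 in RANKL alone, with a T2 ratio of 1.13 (1.001 to 1.29). Nr4a1, of the same family, had 3.65 FPKM in T1, 4.08 in T2 and 4.36 in RANKL alone and did not differ beyond counting error. Il1rn, the interleukin 1 receptor antagonist, had 9.52 FPKM in T1, 10.3 in T2 and 13.8 in RANKL alone, with ratios of 0.689 (0.631 to 0.752) and 0.742 (0.682 to 0.807). Il10, an anti-inflammatory cytokine, had 1.18 FPKM in T1, 1.83 in T2 and 2.04 in RANKL alone, with a T1 ratio of 0.582 (0.343 to 0.968). The median log2 change of this list was -0.03 in T1 and -0.03 in T2. Crem, Pde4b and Pde4d belong both to it and to the members described above. Rgs2 is also among the G protein regulators, so its lower level in T2 is counted in both lists.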

How the data were processed

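Total RNA went into libraries by a SMARTer mRNA kit, per the labels' protocols. The builds were GRCm38 and mm10, 2 names of a single assembly, per the submitters' processing notes. For the aligner, counting tool, strand handling and annotation release, the sources used here give nothing. The authors deposited FPKM per gene, 1 column per library, with a gene length in bases.

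The members and lists were chosen with earlier results of these data known. FPKM times gene length came out as whole multiples of a single step within 0.01 for 100% of values above 0, so reads were recovered. Ratios of FPKM carry exact conditional (Clopper-Pearson) 95% intervals from those reads. Changes were differences in log2(FPKM + 1) for the 11069 genes that averaged 1 FPKM or more. Nothing was tested, since each group was 1 library.

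Every member past the filter was named. Ratios were given for those beyond counting error in any comparison and for Gnas, Adcy7 and Pde4b. From each list up to 4 genes with the largest changes, Tshr and Calcr were named, and any others were picked with their values known. 1 receptor that this rule names is not reported here. Overlaps and near-identical copies (at least 95% identity over 100 bases and 50% of the shorter transcript) came from GENCODE M21 with BLAST+ 2.17.0. GENCODE M21 held 99.8% of the table's identifiers and gave 76 of 81 members the same coordinates. Promoters came from RefSeq. Alternatives were no filter, a stricter filter of 5 FPKM, pseudocounts 0.1 and 5, equal FPKM totals, median-of-ratios scaling, folds of 1.5 and 2, 99% intervals, and the mean in place of the median. The functions were tested on simulated data and ran in Python 3.11.15 (scipy 1.17.1, numpy 2.4.6, pandas 2.3.3, matplotlib 3.10.9).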

Additional observations from a re-analysis of the deposited data

How the results depend on the processing

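No result changed direction against RANKL alone under any alternative run. Against RANKL alone the count of members past the size rule, 2 in T1 and 1 in T2, was 0 in both with a pseudocount of 5, under a 5 FPKM filter, at 1.5-fold and at 2-fold. Under the 5 FPKM filter 0 members were higher in T1 and 0 in T2, since Gng2 and Crtc3 lie under that filter. In T2 against T1, 1 member passed the size rule with a pseudocount of 0.1, and 3 were lower under the 5 FPKM filter. With equal FPKM totals, the median of T2 against T1 was 0.0189 (0.0269 over all genes), the other side of 0, 7 members were higher, 0 lower and 1 past the size rule. With 99% intervals 0 were higher and 0 lower in T2 against T1. The cause was not tested. Median-of-ratios scaling gave every library the same factor, 0.998861, so it could change no ratio and was no check of the calls. Of 21 single-member calls, 14 held with equal totals and 9 with 99% intervals. Those lost against RANKL alone were Gna13 in T1 (99%) and Gnai2 in T2 (both). Leaving out Pde4dip, Pde6d and Pde12, which was chosen after seeing the data, kept every direction.

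Depth limits the low members: the ratio of Gng2 rests on 130 to 225 reads per library, and members at a few reads can show no difference. No paired analysis was possible because each group had 1 library and the labels give no replicate numbers.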
